A study of Danio rerio with 6 samples.

Results

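The genes described here are 4 genes of Schwann cells and myelin, *mbpa*, *sox10*, *erbb3b* and *gfap*, as measured in the zebrafish thymus with and without a functional *foxn1* gene. They were found by symbol among the 32520 Ensembl identifiers of the count files. A symbol had to equal the member's name, ignoring case, or failing that the name without its final letter a or b. Each of the 4 names matched 1 identifier. RNA was sequenced from whole thymi of adult zebrafish at 3 months of age. One group was *foxn1*+/+ and the other *foxn1*-/-, a line with an internal deletion of *foxn1*, the transcription factor of thymic epithelial cells. Each group had 3 libraries, and each library held the RNA of 3 fish. The tissue was explanted and not sorted, so a library holds every cell type that was dissected with the thymus. For zebrafish thymi used in PCR the methods name an *ikzf1*:EGFP background, and for the sequenced libraries no further allele is named. Libraries are called by genotype and replicate number.

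Myelin is the stack of membrane that glia wind around axons. In peripheral nerves it is made by Schwann cells, which come from the neural crest, and in the brain and spinal cord by oligodendrocytes. Some of its proteins are shared by both, among them Mbp, which holds the inner faces of the membrane together, so *mbpa* alone does not tell nerve from brain. Sox10 is the transcription factor that glia of the neural crest keep throughout life, and oligodendrocytes and pigment cell precursors use it too. Erbb3 is the receptor through which Schwann cells receive neuregulin from axons. Gfap is an intermediate filament of astrocytes and radial glia that non-myelinating Schwann cells and enteric glia also make. Peripheral nerve and brain are therefore better told apart by other genes: *prx*, *egr2b* and *foxd3* for peripheral glia, *olig1*, *olig2* and *myrf* for oligodendrocytes, glutamate transporters for astrocytes. Of these, *egr2b* is known in mouse from T cells as well, so in thymus it does not by itself mark nerve.

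Library totals ranged from 31989159 to 42198532 counts, at which 3 counts correspond to between 0.0623 and 0.0874 counts per 1000000 counts of the library (CPM). CPM values are normalised by TMM, the scaling of edgeR, unless called plain. Of all identifiers, 23805 had more than 5 counts in at least 3 libraries and were tested. *foxn1* itself had 495, 375 and 349 counts in the *foxn1*+/+ and 114, 129 and 66 in the *foxn1*-/- libraries, and was lower in the latter (log2 fold change -1.79 ± 0.26 (SE), adjusted P = 0.000792). The log2 CPM of libraries correlated between 0.968 and 0.981 within a genotype and between 0.774 and 0.838 across genotypes. The genotypes differed widely: 17165 of the 23805 genes (72.1%) passed an adjusted P of 0.05 in the quasi-likelihood test of edgeR, 36.2% higher and 35.9% lower in *foxn1*-/-. All 14 thymocyte markers tested fell, from between 1.09% and 1.35% of the library total to between 0.0188% and 0.0578%. All 14 contractile muscle markers rose, from between 0.874% and 1.99% to between 9.42% and 13.1%. In *foxn1*-/- replicate 2 most genes of central neurons and some of astrocytes were far above the other mutant libraries, and in *foxn1*-/- replicate 3 those of photoreceptors were. In *foxn1*+/+ replicate 1 all 17 connective tissue genes were at their lowest, with a summed level 0.246 times the mean of the other *foxn1*+/+ libraries. The replicate fish were pooled, so the spread and the P values are those between pools.

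All 4 Schwann cell and myelin genes were higher in every *foxn1*-/- library than in every *foxn1*+/+ library, where 37.8% of all genes tested had such a separation upwards. By the test across all genes 3 of the 4 rose, *sox10*, *erbb3b* and *gfap*, against 36.2% of all genes. *mbpa*, the gene with the most counts, did not pass it. Log2 fold changes ran from 1.13 for *gfap* to 2.35 for *sox10* with a median of 1.67, where the median of all genes was 0.02. Scaling by plain library totals moved the latter to -0.39 and the share of calls that were higher in *foxn1*-/- from 50.2% to 38.4%. In whole tissue, more cells of a type and more RNA in each cell cannot be told apart, nor can a rise be told from the loss of other RNA, here that of thymocytes. An exact two-sided permutation test of 3 against 3 libraries cannot give a P below 0.1. The P values therefore rest on a modelled spread, that of each gene drawn towards a trend over all genes.

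**Figure D1:**
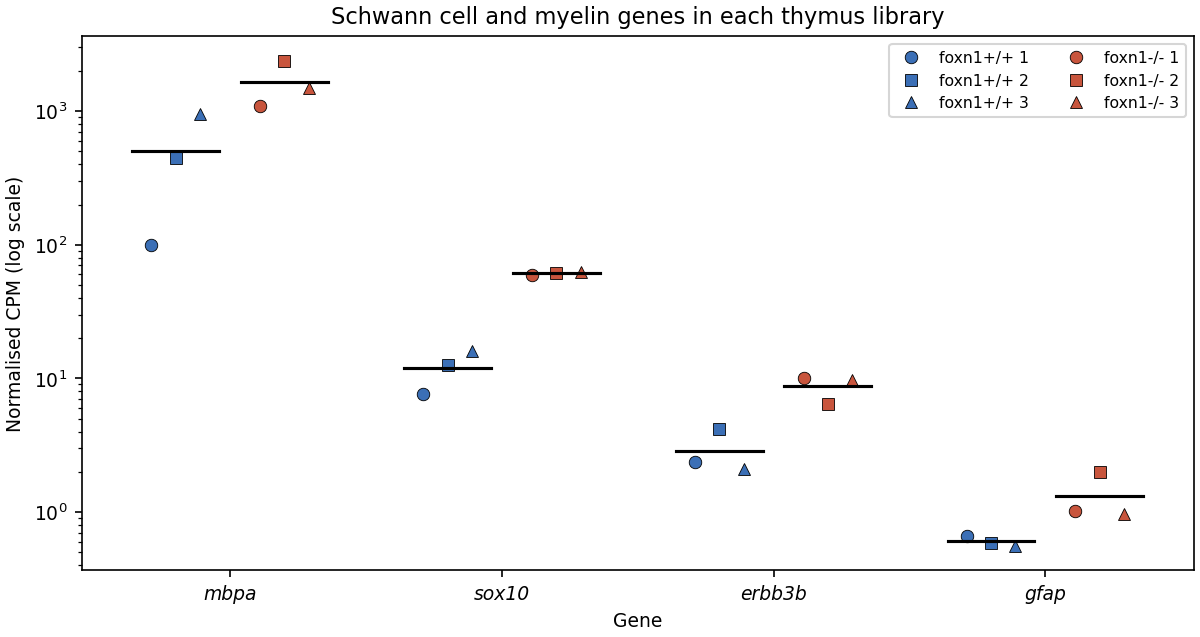
Normalised CPM on a log scale of the 4 Schwann cell and myelin genes in each library (blue, *foxn1*+/+; red, *foxn1*-/-; symbol shape, replicate; black line, group mean, n = 3). For every gene the lowest red point lies above the highest blue point; *mbpa* spreads widely among the *foxn1*+/+ libraries, whereas *sox10* lies between 59.2 and 62.8 CPM in the *foxn1*-/- libraries.

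*mbpa* (ENSDARG00000036186), the cytoplasmic glue of the myelin sheath, stood at 100.1, 447 and 956 CPM in *foxn1*+/+ replicates 1 to 3 and at 1091, 2392 and 1501 CPM in *foxn1*-/- replicates 1 to 3. The lowest mutant library was thus only a little above the highest *foxn1*+/+ library. Among themselves the *foxn1*+/+ libraries differed 9.55-fold, the widest spread of the 4 genes, and the mutant libraries 2.19-fold. Means were 501 ± 430.5 and 1661 ± 665 CPM (SD, n = 3). The log2 fold change of 1.73 ± 0.73 (SE) had an adjusted P of 0.0686. *mbpa* passed the test once *foxn1*+/+ replicate 3, the highest of its group, was left out (2.57, adjusted P = 0.0225). It did not pass with any other single library left out. Adjusted P was then lowest without *foxn1*+/+ replicate 1 (0.0605) and highest without *foxn1*+/+ replicate 2 (0.166). Without *foxn1*-/- replicate 2 the log2 fold change was 1.44 (adjusted P = 0.159). On plain library totals the genotypes overlapped for this gene, at 1071 CPM in *foxn1*+/+ replicate 3 and 914 CPM in *foxn1*-/- replicate 1, whereas the other 3 genes remained apart. Reads that fit *mbpa* and its paralogue *mbpb* equally could be split or dropped, since how multiply aligned reads were counted is not given in the sources used here.

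*sox10* (ENSDARG00000077467), the transcription factor that maintains glia of the neural crest, gave the clearest difference between genotypes. It was at 7.62, 12.5 and 15.9 CPM in *foxn1*+/+ and at 59.2, 61.8 and 62.8 CPM in *foxn1*-/-, which is 12.0 ± 4.18 against 61.3 ± 1.82 CPM (SD, n = 3) and 5.10-fold by the means. The log2 fold change was 2.35 ± 0.26 (SE, adjusted P = 0.00023). The mutant libraries differed 1.06-fold in *sox10*, where they differed 2.19-fold in *mbpa*. The call held in each of the 13 alternatives computed, with log2 fold changes from 1.95 to 2.57, and without *foxn1*-/- replicate 2 the value was 2.41.

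*erbb3b* (ENSDARG00000036993), the neuregulin receptor that zebrafish Schwann cells need to migrate along nerves, was at 2.35, 4.20 and 2.11 CPM in *foxn1*+/+ and at 10.1, 6.43 and 9.78 CPM in *foxn1*-/-. It rose by a log2 fold change of 1.61 ± 0.32 (SE, adjusted P = 0.00306), from a mean of 2.88 ± 1.14 to 8.77 ± 2.03 CPM (SD, n = 3). It was the only one of the 4 genes with its lowest mutant value in *foxn1*-/- replicate 2, 0.647 times the mean of the other mutant libraries. The call held in all 13 alternatives (1.19 to 1.93). Of genes named after their values were seen, the paralogue *erbb3a* went from 77, 107 and 120 to 430, 379 and 422 counts (log2 fold change 2.16), the co-receptor *erbb2* from 262, 282 and 296 to 736, 700 and 754 counts (1.54), and the ligand *nrg1* from 306, 394 and 262 to 773, 605 and 673 counts (1.26). Receptors of this family are also made by epithelia.

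*gfap* (ENSDARG00000025301), the filament of astrocytes and radial glia, was the least abundant by count. It had 32, 22 and 21 counts in *foxn1*+/+ and 35, 74 and 36 in *foxn1*-/-, or 0.665, 0.584 and 0.560 against 1.02, 1.99 and 0.962 CPM. *foxn1*-/- replicate 2 held slightly more counts than the other mutant libraries together, and these were not far above *foxn1*+/+. The log2 fold change of 1.13 ± 0.36 (SE) had an adjusted P of 0.0247. It was 0.77 (adjusted P = 0.0458) without *foxn1*-/- replicate 2, and the call was lost without any single *foxn1*+/+ library (1.04 to 1.17, adjusted P = 0.0578 to 0.0797) and with plain library totals (0.73, adjusted P = 0.111).

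Ratios of counts inside a library do not depend on the scaling between libraries. On the log2 scale *mbpa* to *sox10* was 3.71, 5.16 and 5.90 in *foxn1*+/+ and 4.20, 5.28 and 4.58 in *foxn1*-/-, so the groups overlapped and the lowest ratio was that of *foxn1*+/+ replicate 1. *prx* to *sox10* overlapped as well (1.44, 0.39 and 1.03 against 1.91, 1.66 and 1.35). *pmp22b* to *sox10* was nearly constant, at 1.85, 2.14 and 2.102 in *foxn1*+/+ and at 2.18, 2.04 and 2.104 in *foxn1*-/-, although both genes differed several-fold between genotypes. *erbb3b* to *sox10* was -1.70, -1.57 and -2.91 against -2.55, -3.26 and -2.68, with overlap. *gfap* to *sox10* was lower in the mutants without overlap, at -3.50, -4.39 and -4.80 against -5.84, -4.95 and -6.01, and was highest among the mutants in replicate 2. *egr2b* to *sox10* averaged 1.57 ± 0.69 in *foxn1*+/+ and -0.85 ± 0.02 in *foxn1*-/- (SD, n = 3), again without overlap. *egr2b* is known in mouse from T cells as well, and thymocyte markers fell in *foxn1*-/-. Which cells the *egr2b* counts came from was not tested. These ratios were described and not tested.

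**Figure D2:**
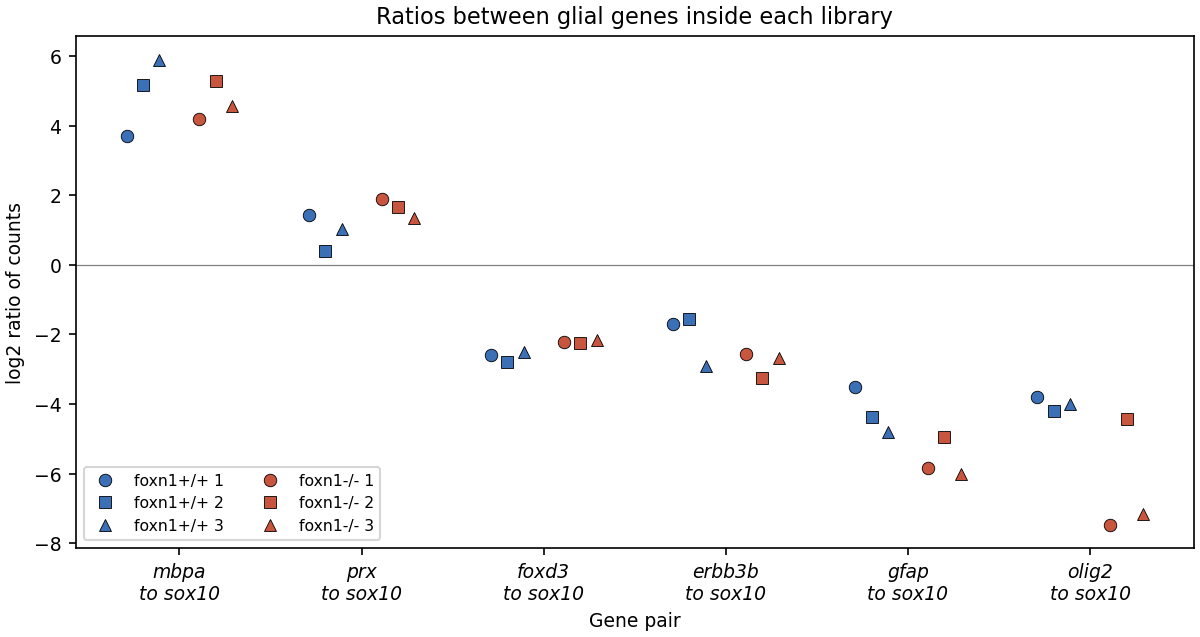
Log2 ratio of the counts of 2 genes inside each library for 6 gene pairs (blue, *foxn1*+/+; red, *foxn1*-/-; symbol shape, replicate). *mbpa*, *prx* and *erbb3b* to *sox10* overlap between genotypes, *foxd3* to *sox10* lies between -2.24 and -2.17 in *foxn1*-/-, and *olig2* to *sox10* is at -4.43 in *foxn1*-/- replicate 2 but at -7.47 and -7.15 in the other mutant libraries.

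Genes of peripheral glia rose with *sox10*. Of 30 tested identifiers on a list of Schwann cell and satellite glia genes, 24 were higher (80%) and 3 lower (10%) in *foxn1*-/-, against 36.2% and 35.9% of all genes tested, with a median log2 fold change of 2.05. *prx*, which encodes the scaffold protein periaxin of myelinating Schwann cells, had 997, 616 and 1225 counts in *foxn1*+/+ and 7616, 7244 and 5979 in *foxn1*-/- (log2 fold change 3.05 ± 0.28 (SE), adjusted P = 0.000126). *pmp22b*, a membrane protein of peripheral myelin, went from 1320, 2079 and 2569 to 9203, 9414 and 10095 counts (2.39 ± 0.32, adjusted P = 0.000566). For both genes the mutant libraries lay close together and far above *foxn1*+/+. The paralogue *pmp22a* rose as well (2.16). Which cells made the RNA of the genes on this list was not tested. The summed connective tissue genes rose 4.74-fold, where *pmp22b* rose 5.24-fold by the means. *adgrg6*, the adhesion receptor that starts Schwann cell myelination in zebrafish, went from 187, 307 and 296 to 1073, 1188 and 1112 counts (2.22).

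*foxd3*, a neural crest factor that peripheral glia keep, went from 61, 68 and 105 to 439, 485 and 523 counts (log2 fold change 2.77 ± 0.29 (SE), adjusted P = 0.000167). Relative to *sox10* in the same library it was at -2.58, -2.78 and -2.50 in *foxn1*+/+ and at -2.21, -2.24 and -2.17 in *foxn1*-/- on the log2 scale. *pou3f1* (2.69), the factor of promyelinating Schwann cells, *cldn19* (2.31), a claudin of peripheral myelin, and *gldn* (2.25), which gathers sodium channels at nodes of peripheral nerves, rose too and were named after their values were seen. Smaller rises were found for *dag1* (0.72), a laminin receptor of Schwann cells and muscle, and *cadm4* (0.73), an adhesion molecule of Schwann cells, both lost on plain library totals (0.32, adjusted P = 0.0704; 0.33, adjusted P = 0.15). Of the abundant identifiers listed as ITGB1, an integrin that Schwann cells use to bind their basal lamina, ENSDARG00000071863 (2.38), ENSDARG00000104484 (1.77) and ENSDARG00000053232 (0.71) rose. The call of the last was lost without *foxn1*+/+ replicate 1 (0.53, adjusted P = 0.0578) or replicate 3 (0.68, adjusted P = 0.0534) and on plain totals (0.30, adjusted P = 0.197).

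Neither Egr2 gene rose. *egr2b*, a transcription factor that is needed for myelination and is known in mouse from T cells as well, had 1862, 1217 and 1198 counts in *foxn1*+/+ and 1104, 1286 and 1309 in *foxn1*-/-. Its log2 fold change was -0.02 ± 0.11 (SE, adjusted P = 0.902) and turned to values between 0.0088 and 0.070 in several alternatives. On plain library totals *egr2b* fell by 0.42 on the log2 scale (adjusted P = 0.0163). Its paralogue *egr2a* fell from 425, 189 and 163 to 11, 20 and 28 counts (log2 fold change -3.49). Both identifiers listed as NAB1, whose product binds Egr proteins, fell as well (-1.002 for ENSDARG00000040700 and -1.88 for ENSDARG00000042940). *egr2a* and NAB1 were named after their values were seen.

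Of 13 genes of myelin and of its contacts with axons in both nerve and brain, 10 were higher (76.9%, against 36.2% of all genes) and 1 lower. The median log2 fold change was 1.55. *mbpb*, the second Mbp gene, went from 6162, 5933 and 8359 to 10494, 12178 and 11447 counts (0.89 ± 0.20 (SE), adjusted P = 0.00601). It lacked the wide spread of *mbpa* among *foxn1*+/+ libraries, and its call was narrowly lost on plain totals (0.49, adjusted P = 0.0512). *ugt8* (1.55) and the more abundant of 2 identifiers listed as GAL3ST1, ENSDARG00000062711 (1.54), which make the galactolipids of myelin, rose without overlap. *tspan2a*, a tetraspanin, had 1278, 913 and 1241 against 1369, 2594 and 1835 counts (0.92), a call lost on plain totals (0.53, adjusted P = 0.0722). *cnp*, a phosphodiesterase of the myelin sheath that other cells make too, fell from 6623, 5327 and 4796 to 3608, 3290 and 4081 counts (-0.43 ± 0.12 (SE), adjusted P = 0.0128), although not with voom and treat (adjusted P = 0.125). Of genes outside the naming rule, *mag* (2.54), an adhesion protein beside the axon, *cldnk* (2.15), a claudin of fish myelin, and *cntnap1* (3.14), of the paranodal junction, rose. They were named after their values were seen and do not represent the list. Its lowest log2 fold change, -0.45, was that of an identifier that was not called and is not named.

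**Figure D3:**
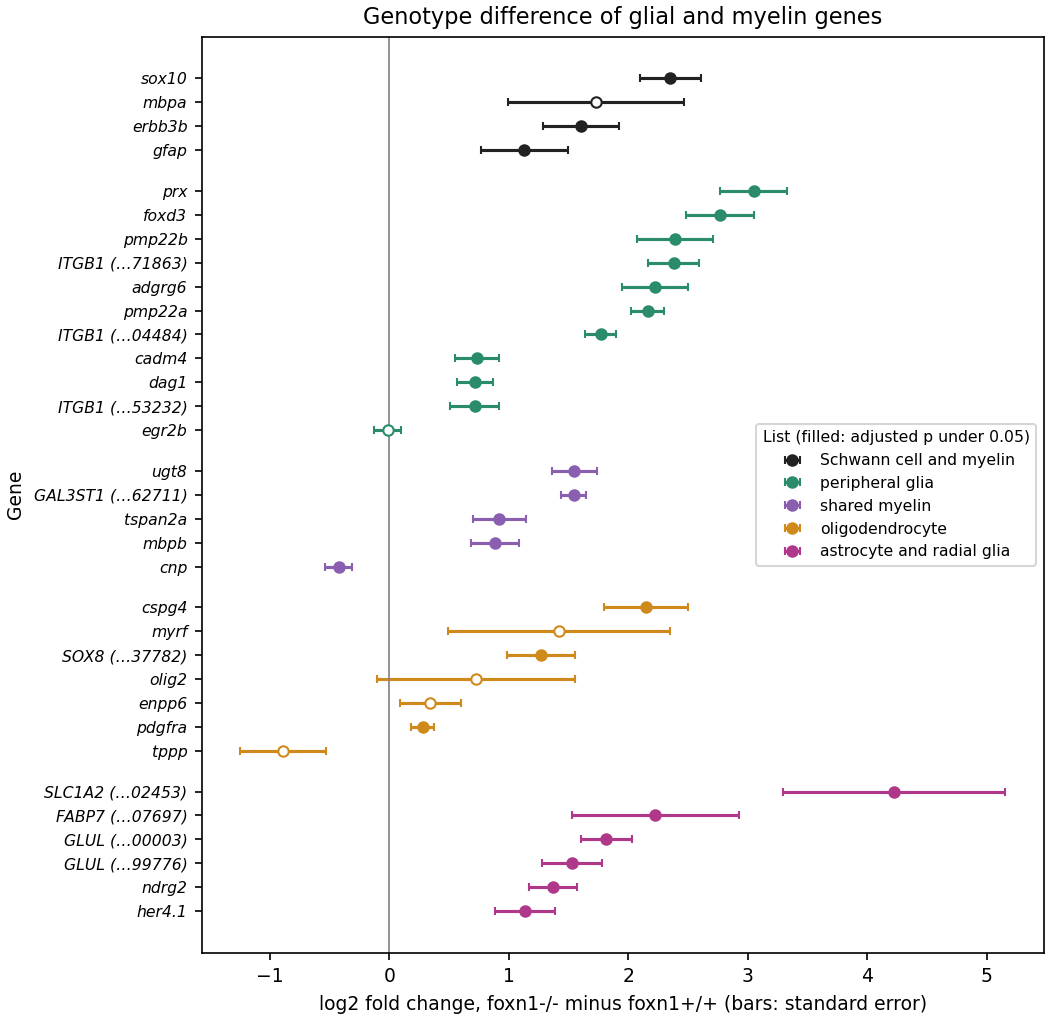
Log2 fold change (*foxn1*-/- minus *foxn1*+/+) of the 4 Schwann cell and myelin genes and of named genes on 4 glial lists, with its standard error (n = 3 libraries per genotype; filled symbols, adjusted P under 0.05; numbers in brackets, the last digits of the Ensembl identifier where several share a symbol). Most peripheral glia genes lie above 1.7, *egr2b* lies at -0.02 and *cnp* at -0.43, and among the oligodendrocyte genes *olig2*, *myrf*, *enpp6* and *tppp* have open symbols.

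The defining oligodendrocyte genes had few counts, and *foxn1*-/- replicate 2 held most of their mutant counts. *olig1* had 3, 1 and 3 counts in *foxn1*+/+ and 4, 36 and 3 in *foxn1*-/-, too few to be tested. *myrf*, the switch to myelination in oligodendrocytes, had 4, 7 and 8 counts against 2, 36 and 9 (adjusted P = 0.2, and 0.0451 without *foxn1*-/- replicate 1). *olig2* had 26, 25 and 37 counts against 11, 106 and 16. Its log2 fold change of 0.72 (adjusted P = 0.452) turned to -0.89 (adjusted P = 0.0873) without *foxn1*-/- replicate 2. In *foxn1*-/- replicates 1 and 3 all 3 genes were therefore at or below their *foxn1*+/+ range or within 1 count of it. *sox10* was as high there as in replicate 2, and which cells its counts came from was not tested.

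Of all 12 tested oligodendrocyte identifiers, 6 rose (50%) and 1 fell (8.33%), with a median of 0.997, where 36.2% of all genes rose and 35.9% fell. Those of them that fell under the naming rule are also made by other cells. These were *cspg4* (2.15) by pericytes, *pdgfra* (0.28, adjusted P = 0.0326) by fibroblasts and SOX8, ENSDARG00000037782 (1.27), by neural crest derivatives. The other identifiers that rose lay outside the naming rule and are not named here. Some such genes of the peripheral glia list and of the list of myelin and axon contacts are named. The named oligodendrocyte genes therefore do not represent their list. Log2 fold changes of the list had an upper quartile of 2.33 and reached 3.95, above those of the named genes. *pdgfra* turned to -0.13 on plain totals and lost its call without any single *foxn1*+/+ library. *tppp* had 1340, 963 and 759 against 385, 779 and 282 counts (-0.89, adjusted P = 0.0578) and passed without *foxn1*-/- replicate 2 (-1.33, adjusted P = 0.00378). *enpp6* had 191, 146 and 125 against 108, 221 and 189 counts (0.34, adjusted P = 0.262) and passed without *foxn1*-/- replicate 1 (0.61, adjusted P = 0.0377). The summed level of the list without *pdgfra* overlapped between genotypes, at 39.7, 38.8 and 32.3 CPM in *foxn1*+/+ and 32.0, 48.8 and 31.3 CPM in *foxn1*-/-.

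Astrocyte and radial glia genes rose in 14 of 16 tested identifiers (87.5%, against 36.2% of all genes) and fell in 1 (median 2.19). For many of them *foxn1*-/- replicate 2 was again the highest. SLC1A2, ENSDARG00000102453, a glutamate transporter of astrocytes, had 100, 159 and 85 counts in *foxn1*+/+ and 431, 4619 and 864 in *foxn1*-/- (log2 fold change 4.23 ± 0.93 (SE), adjusted P = 0.00541). FABP7, ENSDARG00000007697, the fatty acid carrier of radial glia and of Schwann cell precursors in mouse, had 462, 728 and 761 against 869, 5970 and 1631 counts (2.22). Its call was lost without any single *foxn1*+/+ library (adjusted P = 0.0564 to 0.0789). In contrast, both identifiers listed as GLUL, glutamine synthetase, and *ndrg2* rose in mutant libraries that lay closer together: ENSDARG00000099776 (1.53), ENSDARG00000100003 (1.82) and *ndrg2* (1.37). These genes are active in muscle and many epithelia too. *gfap* stood at 2.01 times the mean of the other mutant libraries in replicate 2, where the median of the astrocyte and radial glia identifiers was 1.42 times.

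Most neuronal genes rose as well, with a wider spread among the mutant libraries than most peripheral glia genes. Of 34 central neuron identifiers 19 rose (55.9%, against 36.2% of all genes) and 2 fell (median 2.25). *neurod1* went from 85, 278 and 169 to 168, 3051 and 640 counts (log2 fold change 2.94, adjusted P = 0.0365), with overlapping groups and with the call lost without *foxn1*-/- replicate 2 (1.33, adjusted P = 0.14) or any single *foxn1*+/+ library (adjusted P = 0.0566 to 0.104). *zic1*, a factor of the cerebellum and dorsal neural tube that mesenchyme also makes, went from 13, 106 and 78 to 304, 2153 and 471 counts (3.96), and ZIC2, ENSDARG00000015554, from 117, 298 and 297 to 825, 3585 and 1127 counts (3.05). *nrgna* (2.33), a synaptic protein, rose too. *pvalb7*, a parvalbumin of Purkinje cells that is also found in fish muscle, made up most of the list's counts and rose with the muscle genes (2.80). Without it the list summed to 43.6, 67.3 and 64.5 CPM in *foxn1*+/+ and to 124, 596 and 194 CPM in *foxn1*-/-.

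Peripheral neuron genes showed another order of the libraries. Of 28 identifiers 18 rose (64.3%, against 36.2% of all genes) and 2 fell (median 1.83), and without *foxn1*-/- replicate 3 the number called went from 20 to 13. *phox2bb*, the factor of autonomic and visceral neurons, had 10, 18 and 66 counts in *foxn1*+/+ and 98, 740 and 559 in *foxn1*-/- (3.97, adjusted P = 0.00784). *prph*, the filament of peripheral axons, went from 168, 430 and 545 to 652, 954 and 3100 counts (2.12, adjusted P = 0.0301) and lost its call without *foxn1*-/- replicate 3 (1.27, adjusted P = 0.0856) or *foxn1*+/+ replicate 1 or 2 (adjusted P = 0.0697 and 0.0708). *nefma*, a neurofilament of large axons, had 179, 1450 and 1629 counts against 2531, 2611 and 3740 (1.51, adjusted P = 0.108). In *foxn1*+/+ replicate 1 it was at 0.0907 times the mean of the other *foxn1*+/+ libraries, and without that library it passed the test (0.95, adjusted P = 0.00646). *nefla* (1.43, adjusted P = 0.0377) lost its call without *foxn1*+/+ replicate 2 (adjusted P = 0.084) or any single *foxn1*-/- library (adjusted P = 0.0533 to 0.0744). *tlx2* (2.02) rose, and *runx3* (-3.29), a factor of sensory neurons and of T cells, fell. Without *runx3* the list summed to 66.6, 144 and 186 CPM in *foxn1*+/+ and to 291, 330 and 468 CPM in *foxn1*-/-.

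Genes of all neurons rose in 19 of 22 identifiers (86.4%, against 36.2% of all genes) and fell in 1 (median 2.17). SNAP25, of the machinery of vesicle release, rose in both identifiers, ENSDARG00000020609 (2.70, adjusted P = 0.00853) and ENSDARG00000058117 (2.43, adjusted P = 0.0369). The latter lost its call without *foxn1*-/- replicate 2 (1.87, adjusted P = 0.103) or 3 (adjusted P = 0.0636) and without *foxn1*+/+ replicate 2 or 3 (adjusted P = 0.0712 and 0.0586). *elavl4* (1.78) and STMN1, ENSDARG00000033655 (1.90), rose, and STMN1, ENSDARG00000004169, of dividing cells and neurons, fell (-3.44).

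**Figure D4:**
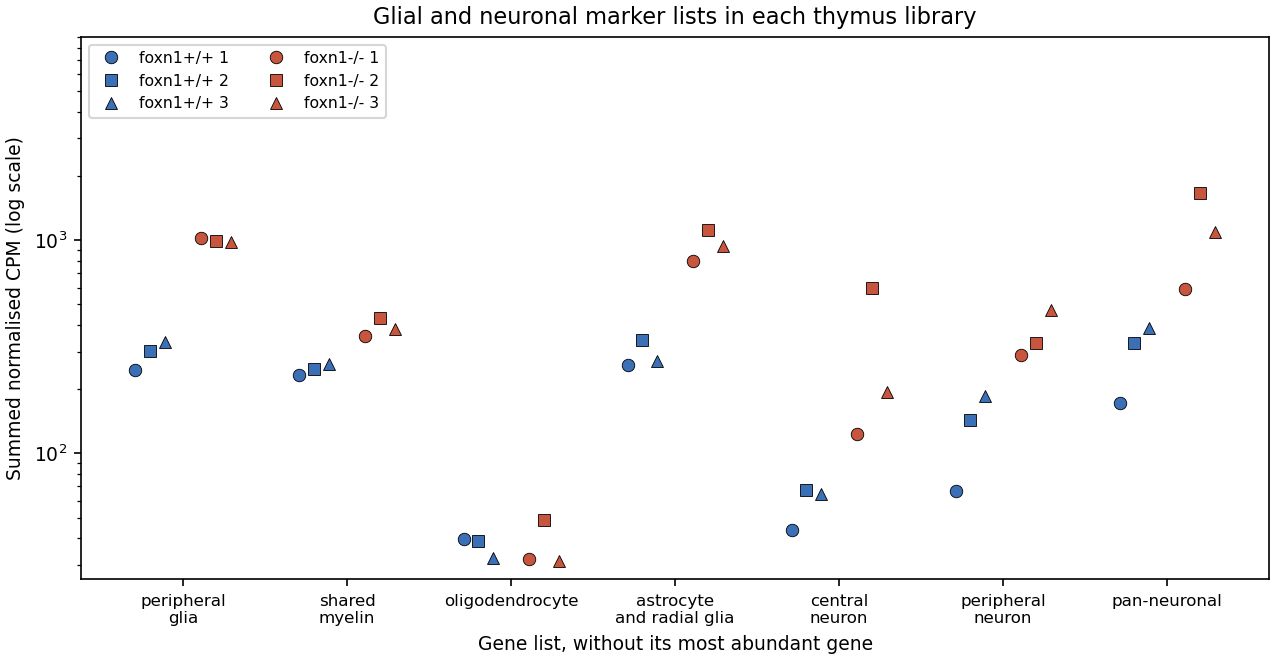
Summed normalised CPM on a log scale of 7 glial and neuronal gene lists in each library, each list without its most abundant gene (blue, *foxn1*+/+; red, *foxn1*-/-; symbol shape, replicate). Peripheral glia lie at nearly one level in the mutant libraries, central neuron genes reach 596 CPM in *foxn1*-/- replicate 2 against 124 and 194 CPM in the others, and the oligodendrocyte sums overlap.

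Levels of nerve and brain genes were therefore compared library by library. In *foxn1*-/- replicates 1 and 3 peripheral glia genes were as high as in replicate 2, and *olig1*, *olig2* and *myrf* had between 2 and 16 counts. Central neuron genes without *pvalb7* summed there to 124 and 194 CPM. These sums were below that of replicate 2 but above the 43.6 to 67.3 CPM of *foxn1*+/+. In *foxn1*-/- replicate 2 the central neuron list without *pvalb7* stood at 3.75 times and the pan-neuronal list without its most abundant gene at 1.99 times the mean of the other mutant libraries, whereas the peripheral glia list without *dag1* stood at 0.988 times. Of 34 central neuron identifiers 27 were highest in this library among the mutants and 21 exceeded 2 times the mean of the others. Of 30 peripheral glia identifiers 8 were highest there and 2 exceeded it. *olig1* reached 9.85, *olig2* 7.62, *myrf* 6.48 and SLC1A2, ENSDARG00000102453, 6.97 times the mean of the other mutant libraries. Their lists did not move as a whole: 4 of 12 oligodendrocyte and 5 of 16 astrocyte and radial glia identifiers tested exceeded 2 times that mean. The highest astrocyte ratio was that of SLC1A3, ENSDARG00000043148, also a glutamate transporter (30.7), while the other SLC1A3 identifier, ENSDARG00000104431, was at 1.10. The other identifier listed as SLC1A2, ENSDARG00000052138 (0.138), was below that mean. In *foxn1*-/- replicate 3 it stood at 12.9 times the mean of the other mutant libraries. Both identifiers of SOX8 (0.357 and 0.767), *cspg4* (0.839) and *pdgfra* (0.924) were below the mean of the others in replicate 2. *prx* (1.02), *pmp22b* (0.942), *foxd3* (0.975) and *sox10* (1.01) did not stand out.

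The 4 genes differed among themselves in this comparison. In *foxn1*-/- replicate 2 *mbpa* (1.85) and *gfap* (2.01) were raised against the mean of the other mutant libraries, and *sox10* (1.01) and *erbb3b* (0.647) were not. On the list of myelin and axon contacts the median ratio was 1.53. Of its 13 identifiers 8 were highest in this library among the mutants and 0 exceeded 2 times the mean of the others, with *mbpb* at 1.07. Whether any of the *mbpa* counts in this library came from brain was not tested. Without it, the lowest mutant values of the genes other than *erbb3b* were unaffected, since these lay in replicates 1 and 3. *s100b*, a calcium-binding protein of Schwann cells and astrocytes, had 36, 53 and 54 counts in *foxn1*+/+ and 136, 637 and 130 in *foxn1*-/-, 4.61 times the mean of the other mutants in replicate 2.

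**Figure D5:**
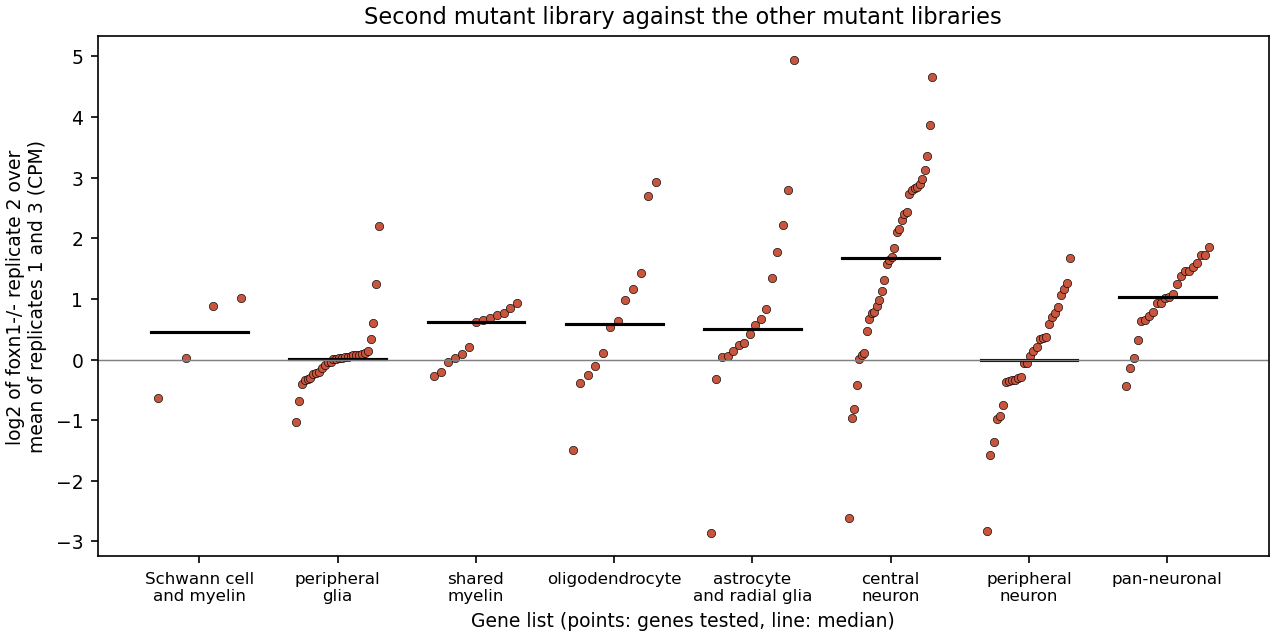
Log2 of the CPM in *foxn1*-/- replicate 2 over the mean of *foxn1*-/- replicates 1 and 3 for each tested gene of 8 lists (points, genes; black line, median). Central neuron genes have a median ratio of 3.19 and pan-neuronal genes of 2.03, peripheral glia genes of 1.01, and the Schwann cell and myelin genes of 1.43.

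Among the *foxn1*+/+ libraries, replicate 1 was lowest for *mbpa* and *sox10*, and for 22 of 30 peripheral glia and 22 of 28 peripheral neuron identifiers. There *mbpa* was at 0.143 times the mean of the other *foxn1*+/+ libraries, between the 0.0907 of the axonal *nefma* and the 0.246 of connective tissue, while *sox10* was at 0.536. *mbpa*, *nefma* and connective tissue transcripts were thus low together in this library. The muscle genes *pvalb1* (0.117) and *pvalb2* (0.0928) were similarly low, but *mbpb* (0.673) and the contractile muscle list as a whole (0.759) were less so. What part the tissue taken had in the wide *foxn1*+/+ spread of *mbpa* was not tested. As a share of all counts the 4 genes together took 0.0128%, 0.0547% and 0.109% in *foxn1*+/+ and 0.0973%, 0.218% and 0.140% in *foxn1*-/-, so that on this scale *foxn1*+/+ replicate 3 overlapped with *foxn1*-/- replicate 1.

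Genes of several other tissues rose together with the glial genes. Whether their RNA came from the thymus itself or from tissue beside it was not tested. All 17 connective tissue genes (for example *col1a1a*, 2.36), all 14 contractile muscle genes (*actc1b*, 3.39) and 10 of 12 endothelial genes (*cdh5*, 1.79) were higher in *foxn1*-/-, and of 18 hair cell and inner ear genes 13 were higher and 3 lower (*otomp*, 1.64). All 14 thymocyte genes were lower (*rag1*, -4.41). Of 18 pigment cell genes, whose cells share *sox10* with glia, 14 rose (77.8%, against 36.2% of all genes) and 1 fell (median 1.54). *pmela* went from 63, 139 and 96 to 505, 431 and 874 counts (2.72) and TYRP1, ENSDARG00000056151, from 183, 386 and 195 to 1099, 694 and 1788 (2.36), both of melanosomes. *gch2* (1.10) and *csf1ra* (1.11), of yellow pigment cells, rose, the latter being a gene of macrophages too, and *pnp4a*, a purine enzyme of iridophores, fell (-1.54). The pigment list had its lowest mutant sum in replicate 2, at 87.7 CPM against 129 and 152 CPM, although 3 of its 18 genes were highest there. *sox10* was level in all 3 mutant libraries, and what part of its counts came from pigment cells was not tested. Of 19 photoreceptor genes 4 rose (21.1%, against 36.2% of all genes) and none fell. The count was 1 without any single *foxn1*+/+ library or with the replicate number as a block, 2 on plain totals, with no count filter or with voom and treat, and 10 without *foxn1*-/- replicate 1. All 19 had their highest mutant level in *foxn1*-/- replicate 3. The most abundant, *pde6ha*, a phosphodiesterase subunit of photoreceptors, had 111, 103 and 68 counts in *foxn1*+/+ and 165, 311 and 3108 in *foxn1*-/- (3.81, adjusted P = 0.0176). Its call was lost without any single *foxn1*+/+ library (adjusted P = 0.0522 to 0.0635), with voom and treat (adjusted P = 0.115) and with the block (adjusted P = 0.0616). In that library *sox10* (62.8 CPM) was level with the other mutant libraries and *mbpa* (1501 CPM) lay between them. What part tissue dissected with the thymus had in the higher glial levels was not tested.

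Among 18878 other genes that averaged 1 CPM or more, those most like *gfap* in log2 CPM over the 6 libraries were KLF11 (Pearson's r = 0.992), GDPD4 (0.991), *pold4* (0.990), DMBX1 (0.988) and *her4.1* (0.987), a Notch target of radial glia, and 152 exceeded 0.95. With 6 libraries of 2 genotypes such values are a description, because all genes share the same libraries and the same difference between genotypes.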

How the data were processed

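Whole thymi were compared between *foxn1*+/+ and *foxn1*-/- zebrafish, with 3 libraries per genotype assigned from the sample labels. Per the submitters' processing notes, Trim Galore 0.4.3.1, HISAT2 2.1.0 and featureCounts 1.6.1.0 were used with GRCz11. The values deposited by the authors are counts of reads for each Ensembl identifier and were not normalised. Which annotation release was used, whether strand was used and how reads with several alignments were counted is not given in the sources used here. Library totals ranged from 31989159 to 42198532 counts, and with no molecular identifiers the floor of 3 counts covers counting error only. The SDs and SEs are those between libraries.

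Symbols came from a table that pairs 29201 of the 32520 identifiers with a name. It lists some zebrafish genes under the symbol of the human orthologue, so the identifier is given where several share a symbol. Without gene lengths, levels of different genes were not compared beyond their counts. No sequence is shown.

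Identifiers above 5 counts in 3 or more libraries were kept, normalised by TMM and compared by the two-sided quasi-likelihood test of edgeR 4.0.16 (robust) in R 4.3.3, with Benjamini-Hochberg adjustment over all 23805 genes at 0.05. Alternatives were DESeq2 1.42.0, its size factors, scaling by library totals only, no count filter, a filter of 10 counts in all libraries, limma 3.58.1 (voom and treat, fold change 1.2, the test in the study's methods), a replicate block, and each library left out in turn. The fit was tested on simulated data with 200 changed genes among 23589, of which 80% of 2-fold and 100% of 4-fold changes were recovered with 9 false calls. The simulation gave every gene the same spread, balanced the directions and drew changed genes from the more abundant ones. Its figures therefore do not describe genes of wide spread such as *mbpa*, scarce genes such as *gfap*, or data in which 72.1% of genes differ.

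The 4 members and 14 related gene lists were chosen with earlier results of these data known. Some genes of these lists are not reported here and were left out of their counts. Genes named were the members, the 10 most abundant peripheral glia genes, the 5 most abundant of each other glial, neuronal and pigment list, *egr2b*, *foxd3*, *olig1*, *olig2*, *myrf*, *phox2bb*, the most abundant gene of each other list, *foxn1*, and the 5 genes most correlated with *gfap*. *egr2a*, NAB1, *erbb2*, *erbb3a*, *nrg1*, *s100b*, *pou3f1*, *cldn19*, *gldn*, *mag*, *cldnk*, *cntnap1*, SLC1A3, *pvalb1* and *pvalb2* were added after their values were seen. Lists were described by counts and medians, with no set test.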

Additional observations from a re-analysis of the deposited data

How the results depend on the processing

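*sox10* and *erbb3b* kept their direction and call in 13 of 13 alternatives. The other members kept their direction in all 13. *mbpa* passed with DESeq2 (1.71, adjusted P = 0.043), with voom and treat (2.17, adjusted P = 0.0499) and with the replicate block (2.19, adjusted P = 0.0196), and *gfap* failed on library size alone (0.73, adjusted P = 0.111) and with voom and treat (1.04, adjusted P = 0.0576). With 1 library left out in turn, log2 fold changes ranged from 1.204 to 2.57 for *mbpa* and 0.77 to 1.39 for *gfap*, and the number of members called from 2 (without *foxn1*+/+ replicate 1 or 2) to 3. Replicate numbers did not pair the libraries: the deviations of same-numbered libraries correlated at 0.139, -0.061 and -0.009, and only *foxn1*+/+ replicate 1 correlated best with its own number. With the replicate block all 4 members and 16306 of all genes were called.

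Directions turned for *enpp6* (-0.059), *pdgfra* (-0.13) and *pold4* (-0.15) on library size alone, for *olig2* without *foxn1*-/- replicate 2 (leave-one-out range -0.89 to 1.23), and for *egr2b* with no filter (0.0097), with at least 10 counts (0.0088) and with libraries left out (range -0.102 to 0.070). The log2 ratio of the summed oligodendrocyte list turned as a share of the raw total (-0.24), and that of the peripheral neuron list without its most abundant gene (1.46). The cause was not tested in any of these. Genes under about 10 counts per library, such as *olig1* and *myrf*, are limited by depth.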
